A study of Rattus norvegicus with 25 samples.

Results

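Gingiva of rats with experimental periodontitis (EP) was compared with gingiva of sham rats over every gene that was measured. The comparison took the 5 libraries labelled EP and the 5 labelled sham, which are 10 of the 25 libraries of the series, and tested 16092 of 30547 genes, those that reached a filter on low counts. All rats were wild type Sprague-Dawley rats, given as 6 weeks old in the sample labels and as older in the methods of the paper. In the EP group a silk ligature was tied around the first molars of both sides of the upper jaw and Porphyromonas gingivalis ATCC 33277 was spread on it. The sham group received hydrogel as its control, and whether EP rats received a gel without drug is not stated, so that ligature, bacterium and any difference in gel cannot be told apart. RNA of whole gingiva was sequenced after removal of ribosomal RNA. In such bulk samples a change in the number of cells of a type and a change in RNA per cell cannot be told apart. This touches every rise and every fall described here.

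Gingiva is the collar of mucosa that seals the neck of the tooth. Its epithelium is layered: basal cells divide and hold on to the basement membrane, and the cells above them stop dividing and keratinize. Beneath lies a connective tissue of fibroblasts, collagen, vessels, nerves and resident leukocytes. In periodontitis a bacterial film at the gum margin keeps this tissue inflamed, and fibre attachment and alveolar bone are lost in time. A ligature holds such a film in place and is a common way to start the disease in rodents.

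Defining markers of gingiva were read in all 10 libraries. Krt5 and Krt13, keratins of the basal and the upper layers, ranged from 34582 to 844927 and from 31579 to 491521 normalized counts (whole reads divided by 1 size factor per library), and Col1a1, the main fibroblast collagen, from 49936 to 177079.6. Reads per library ran from 50690789 to 61490425 in the sham group and from 61292453 to 70801162 in EP. Sham 4, EP 3 and EP 4 stood apart through 17 genes of nasal glands, odorant-binding proteins among them. Their summed level was 15100430.3 to 27342274 normalized counts in these 3 libraries and 4066 to 19815 in the other 7. The count of all genes called is therefore also given without these 3, as are the counts of many lists. Where a list has no such count, it is not shown whether its count holds without them. The sham libraries differed among themselves more than the EP libraries did, with a median SD of log2 values of 0.495 against 0.32, and the SD was larger in sham for 74.1% of the genes tested. Among them sham 1, sham 3 and sham 4 were rich in nerve transcripts (24 genes, summed level 80754 to 235762 against at most 4026 in the other 7 libraries). Muscle transcripts (25 genes) summed to 39161 to 596469 in sham and to 539132 to 2701865 in EP. Salivary gland transcripts (26 genes) summed to 15436 to 2443143 in sham and to 879785 to 9679279 in EP, and 0 of the 19 tested were called. The salivary gland marker Muc5b stood at 1795990 in sham 2 and 1303017 in sham 5, and at 1187 to 50718 in sham 1, sham 3 and sham 4. In EP it ran from 3619 to 7106882. The part of gland tissue in the calls was not tested.

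At an adjusted p under 0.05 (limma on log2 values of all 25 libraries, Benjamini-Hochberg adjustment), 6057 genes differed between EP and sham, which is 37.6% of those tested. Of these, 3024 were higher in EP (18.8% of genes tested) and 3033 lower (18.8%). The rises were the larger changes, with a median log2 fold change of 1.14 against -0.69 among the falls. At least 2-fold higher were 1748 genes and at least 2-fold lower 865, whereas 545 rose and 164 fell at least 4-fold. In 1298 genes every EP library lay above every sham library (8.07%) and in 1363 every EP library lay below (8.47%). Without sham 4, EP 3 and EP 4 the count was 4501 (28.0%), with 2154 higher (13.4%) and 2347 lower (14.6%). Of the 6057 genes, 4112 passed again in the same direction and 0 turned direction. With edgeR without the 3 libraries 1519 were higher and 2980 lower, and the cause of this difference in the split was not tested. Over all libraries edgeR called 5952 genes (37.0%), 2797 higher (17.4%) and 3155 lower (19.6%). DESeq2 called 6832 (42.5%), 3255 higher (20.2%) and 3577 lower (22.2%). In a fit of the sham and EP libraries alone, 3380 genes passed (21.0%), 1745 higher (10.8%) and 1635 lower (10.2%). A core of 2660 genes, 1281 higher and 1379 lower, passed in the same direction with edgeR, with DESeq2, in the fit of these groups alone, with a block for the rat number, without the 3 libraries and with each of the 10 libraries left out in turn.

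**Figure D1:**
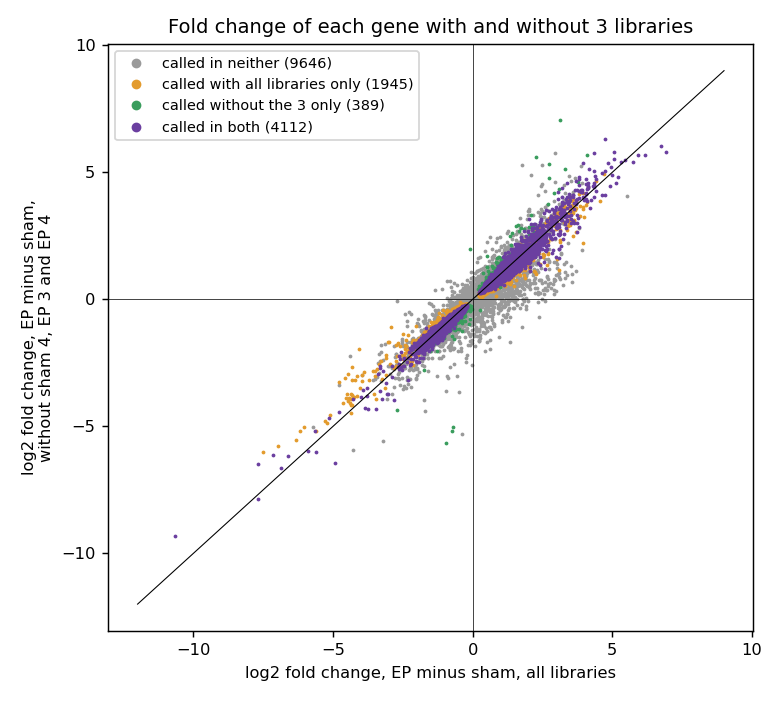
Each point is 1 of the 16092 genes tested, with its log2 fold change (EP minus sham) over all libraries on the x axis and without sham 4, EP 3 and EP 4 on the y axis. The 4112 genes called in both fits lie along the line of equal values, on the same side of 0 on both axes, and the genes called in only 1 of them lie around it.

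The order of the sham libraries ran along the same direction as the comparison. Of the genes called higher in EP, 63.6% had sham 2 and sham 5 both above sham 1, sham 3 and sham 4, against 22.6% of all genes tested. Of the genes called lower, 58.9% had sham 2 and sham 5 both below the other 3, against 24.9% of all genes. The part of this split within the sham group in the calls was not tested.

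The cell division programme was lower in EP gingiva. Of 55 genes of mitosis tested, 49 were lower and 0 higher, with a median log2 fold change of -1.35 (0.01 over all genes tested), and 48 were lower without the 3 libraries. In 40 of the 55 every EP library lay below every sham library (8.47% of all genes did so). Ube2c is the enzyme with which the anaphase-promoting complex marks cyclins for destruction. It was read at 1623, 729.9, 1437, 1020.4 and 994 normalized counts in sham 1 to 5 and at 161, 127, 233, 463 and 360.4 in EP 1 to 5 (log2 fold change -2.21, SE 0.30, adjusted p = 9.16e-05, chr3:161236898-161241159 in Rnor_6.0). All EP libraries lay under all sham libraries, and EP 4 and EP 5 were the highest of their group. For Cks2, a small subunit that docks on cyclin-dependent kinases, the sham libraries held 2110.2, 1047, 2733, 1165 and 1019. EP values were 304, 307, 338, 357 and 478 (log2 fold change -2.07, SE 0.27, adjusted p = 8.74e-05, chr17:13587665-13593423). Pttg1, securin, which keeps sister chromatids from being parted before anaphase, fell (549 to 894 in sham, 101 to 232 in EP, log2 fold change -2.06, SE 0.28, adjusted p = 8.74e-05). The spindle protein Nusap1 fell as well (log2 fold change -1.70, SE 0.22, adjusted p = 8.74e-05). So did Cdca8, borealin of the chromosomal passenger complex (log2 fold change -1.63, SE 0.17, adjusted p = 1.42e-05). The groups overlapped in none of these 5 genes. For Cks2 and Cdca8, at least, this was part of the rule that chose them.

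DNA replication followed with smaller changes. Of 47 genes tested 28 were lower and 0 higher, with a median of -0.62. Without the 3 libraries 19 were lower, and 14 in the fit of sham and EP alone. Rfc5, a subunit of the clamp loader, was read at 1874, 989, 1698, 1799 and 1148 in sham. EP libraries held 753, 606, 748, 865 and 881 (log2 fold change -0.93, SE 0.15, adjusted p = 0.000254). Gins4, part of the helicase that opens the DNA, fell (log2 fold change -1.05, adjusted p = 0.000444). Tipin, which steadies the fork, fell too (log2 fold change -0.84, adjusted p = 0.000312), and in neither gene did the groups overlap. Outside the list, H2ax, the histone variant marked at DNA breaks, fell (log2 fold change -1.35, adjusted p = 3.44e-05). Hmgb2 is a chromatin protein abundant in dividing cells and fell further (log2 fold change -1.58, adjusted p = 8.33e-05).

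The promoters of these genes carry known letters of cell cycle control, and they are shown since 49 of 55 genes of mitosis and 28 of 47 of DNA replication fell. In mammals late cell cycle genes often hold the element TTTGAA a few bases from their start, next to CCAAT boxes, and early ones the site TTTNGCGC, which E2F factors bind. Windows of 300 bases, 250 before and 50 after the start, were taken from RefSeq (GRCr8), which matched 11296 of the 16092 genes, and both strands were searched. TTTGAA was found in 68.8% of 48 mitosis promoters and in 12.1% of all promoters, CCAAT in 79.2% and 37.4%. TTTNGCGC was found in 42.1% of 38 DNA replication promoters and 2.08% of all. The sequences below run from 100 bases before the start to 15 bases past it, 5′ to 3′ along the gene, with TTTGAA, TTTNGCGC and CCAAT, or their reverse complements, in capitals. Shown are the 3 genes of each list that ranked first by p among those holding the element within 100 bases of the start. A match describes the letters and is no evidence that a factor bound there.
Nusap1 (chr3:127057195-127057309, + strand): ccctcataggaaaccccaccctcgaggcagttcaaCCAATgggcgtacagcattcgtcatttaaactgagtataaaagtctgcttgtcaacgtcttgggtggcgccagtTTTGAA
Pttg1 (chr10:28406312-28406426, - strand): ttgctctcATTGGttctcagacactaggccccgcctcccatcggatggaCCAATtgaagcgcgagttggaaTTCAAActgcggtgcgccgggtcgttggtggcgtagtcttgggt
Kif22 (chr1:191080864-191080978, - strand): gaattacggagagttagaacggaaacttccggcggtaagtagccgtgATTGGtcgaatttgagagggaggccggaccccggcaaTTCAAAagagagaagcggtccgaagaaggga
Tipin (chr8:73675991-73676105, + strand): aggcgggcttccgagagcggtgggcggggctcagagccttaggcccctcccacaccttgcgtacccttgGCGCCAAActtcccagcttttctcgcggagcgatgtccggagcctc
Gins1 (chr3:160184820-160184934, + strand): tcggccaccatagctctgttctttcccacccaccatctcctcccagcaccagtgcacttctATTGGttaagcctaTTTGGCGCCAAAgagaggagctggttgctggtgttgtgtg
Rfc3 (chr12:5836468-5836582, + strand): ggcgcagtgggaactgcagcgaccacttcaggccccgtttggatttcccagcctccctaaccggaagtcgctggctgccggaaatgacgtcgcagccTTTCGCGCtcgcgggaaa
In Gins1 the site stands on both strands at once, so that its 2 copies overlap. Kif22, a chromosome-binding kinesin, fell (log2 fold change -1.65, adjusted p = 0.000152). Gins1, of the same helicase complex as Gins4, fell (log2 fold change -1.38, adjusted p = 0.000591). The fall of Rfc3, of the clamp loader, was smaller (log2 fold change -0.70, adjusted p = 0.0091).

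Several brakes of the cell cycle fell too. Of 22 cell cycle inhibitors and stress-response genes 7 were lower and 3 higher, with a median of -0.30 (5 and 1 in the fit of sham and EP alone). Over all libraries these shares were 31.8% and 13.6%, against 18.8% of all genes each way. Bax, a trigger of apoptosis, had a log2 fold change of -1.13 (adjusted p = 0.000108). The inhibitors Cdkn2c and Cdkn1b had log2 fold changes of -0.97 and -0.90 (adjusted p = 0.000144 and 0.000744). The 3 that rose were Rb1 (log2 fold change 0.82), Zmat3 (log2 fold change 1.73) and Ccng1 (log2 fold change 1.23). Ccng1 did not pass without sham 2, sham 3, sham 5, EP 1 or EP 2 (largest adjusted p = 0.0703), and Rb1 did not pass in the fit of sham and EP alone (adjusted p = 0.111). Myc, a driver of growth and ribosome production, fell (2415 to 5815 in sham, 1819 to 3255 in EP, log2 fold change -0.80, SE 0.21, adjusted p = 0.00547).

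Every cytosolic ribosomal protein gene tested was lower in EP. All 75 passed the test, the median log2 fold change was -1.02, and in 67 of them every EP library lay below every sham library (8.47% of all genes did so). Without the 3 libraries 72 passed, and 69 in the fit of sham and EP alone. Rpl35, of the large subunit, was read at 77923, 39298, 108991, 61745 and 39607 in sham. EP rats had 28561, 21325, 23429, 23747 and 28254 (log2 fold change -1.28, SE 0.20, adjusted p = 0.000162, chr3:23294814-23297774). Sham 2 and sham 5 were the lowest sham libraries and still lay above the highest EP library. Rps23, of the small subunit, at the decoding centre, was read at 37479.7 to 72252 in sham and 20960.2 to 28692 in EP (log2 fold change -0.99, SE 0.15, adjusted p = 0.000163). Since ribosomal protein genes have many near-identical processed copies, the split of reads between copies is uncertain, though the direction was shared by all 75.

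Most mammalian ribosomal protein mRNAs begin with a run of pyrimidines, the 5′ terminal oligopyrimidine tract, through which mTOR signalling sets their translation. In the RefSeq windows a run of at least 5 bases of C or T from the start onwards was found in 52.5% of 59 ribosomal protein genes and in 4.22% of all genes. The share was 5.29% among genes called lower and 3.96% among genes called higher, and the part of the run in the fall was not tested. The 30 bases around the start are shown for the 3 members with the smallest p that have such a run, 15 before and 15 from the start on, with the run in capitals.
Rpl35 (chr3:43165907-43165936, - strand): cgccccttcctctttCTCTCgaaccgggcg
Rps23 (chr2:23814502-23814531, + strand): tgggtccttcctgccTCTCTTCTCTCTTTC
Rpl28 (chr1:78083518-78083547, - strand): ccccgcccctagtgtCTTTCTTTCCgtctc
Rpl28, of the large subunit, had a log2 fold change of -1.10 (adjusted p = 0.000169).

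Other parts of the translation machinery moved less. Of 34 genes of ribosome biogenesis 23 were lower and 0 higher (median -0.41, 24 lower without the 3 libraries, 15 in the fit of sham and EP alone). Nip7, which helps to mature the large subunit, was read at 1937, 1337, 1889, 1739.9 and 1441 in sham. EP values were 908, 719, 898, 842 and 996 (log2 fold change -0.93, SE 0.12, adjusted p = 8.18e-05). Nhp2 and Dkc1, of the particles that convert uridine to pseudouridine in ribosomal RNA, had log2 fold changes of -0.92 and -0.88 (adjusted p = 0.000162 and 0.00017). Of 38 initiation and elongation factors 19 were lower and 2 higher (14 and 1 without the 3 libraries, 10 and 1 in the fit of sham and EP alone). Eif3k, of the scaffold that brings the small subunit to mRNA, fell (log2 fold change -0.70, SE 0.13, adjusted p = 0.000452). Eif2b1, of the factor that recharges initiation with GTP, fell too (log2 fold change -0.49, SE 0.10, adjusted p = 0.000874), as did Eef1b2, which does so for elongation (log2 fold change -0.71, SE 0.14, adjusted p = 0.000914). The other way went Eif4g1, the scaffold that links the mRNA cap to the ribosome, with 5772, 13921, 5362, 4565 and 12370.4 in sham. EP libraries held 21165, 20211, 18968, 27880 and 16887 (log2 fold change 1.46, SE 0.25, adjusted p = 0.000285). The other riser, Eif3c, had a log2 fold change of 0.26 (adjusted p = 0.026, and 0.172 without the 3 libraries, and it did not pass without EP 2, EP 3 or EP 4 either). Mitochondrial ribosomal proteins were led by Mrps26 (log2 fold change -1.08, SE 0.18, adjusted p = 0.000285). Of these 54 genes 12 were lower, a count of 7 without sham 1 or without sham 3, 21 without sham 5, 5 without the 3 libraries and 6 in the fit of sham and EP alone. The 12 are 22.2%, near the 18.8% of all genes. Among 30 proteasome subunits 13 were lower and 1 higher, with Psma5 at a log2 fold change of -0.55 (adjusted p = 0.00107) and Psmb1 at a log2 fold change of -0.59 (adjusted p = 0.00282). The lower count was 8 without the 3 libraries and 3 in the fit of sham and EP alone. The 1 higher, Psmd1, had a log2 fold change of 0.50 (adjusted p = 0.0231, and 0.0529 without the 3 libraries, and it did not pass without sham 4, EP 1 or EP 2 either).

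**Figure D2:**
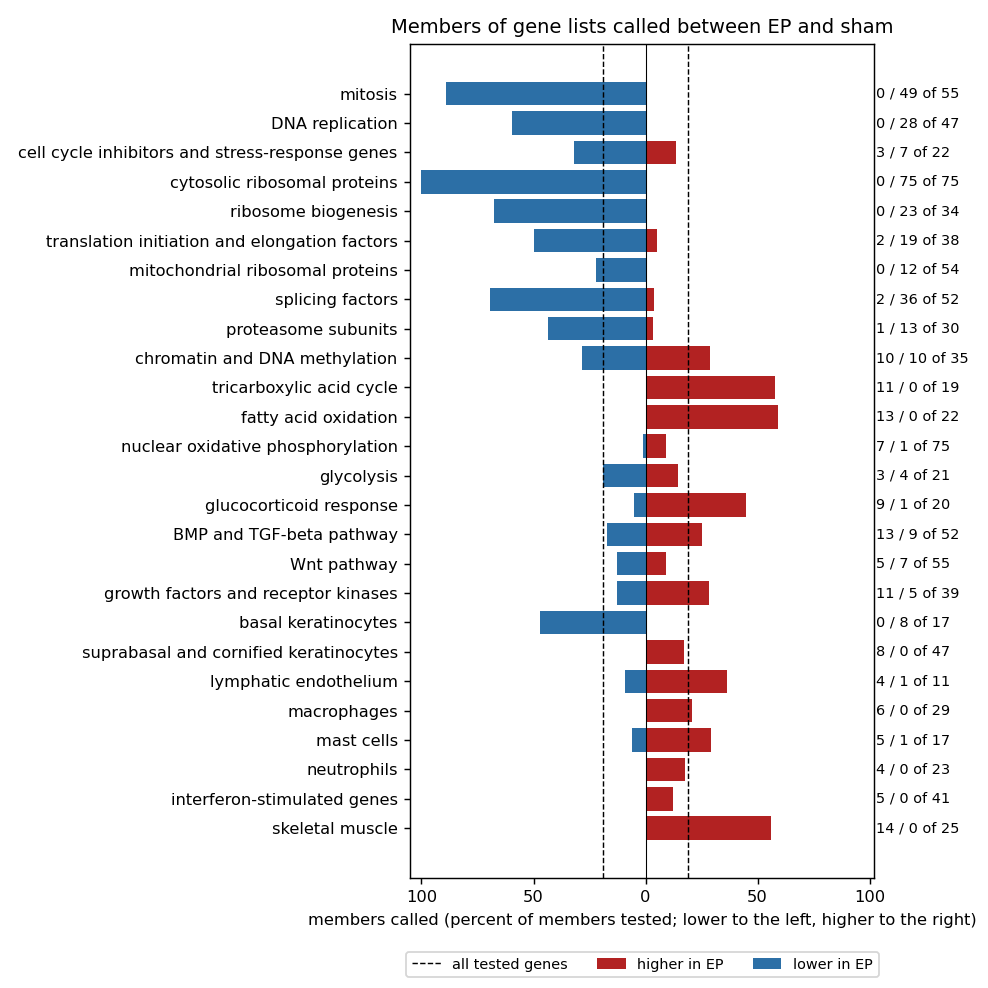
Bars give the percent of tested members of 26 gene lists called higher (right) or lower (left) in EP, with the counts at the right edge, and dashed lines mark the 18.8% of all genes called in each direction. Ribosomal proteins (75 of 75) and mitosis genes (49 of 55) stand farthest to the left, and genes of fatty acid oxidation (13 of 22), the tricarboxylic acid cycle (11 of 19) and skeletal muscle (14 of 25) farthest to the right.

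RNA processing was lower as well. Of 52 splicing factors 36 were lower and 2 higher, with a median of -0.56, and without the 3 libraries the counts were again 36 and 2. In 25 of the 52 every EP library lay below every sham library (8.47% of all genes did so). Hnrnpl, which binds CA-rich RNA and steers exon choice, was read at 23139, 17712, 26546, 20001 and 17022 in sham. EP libraries held 12161, 12077, 12122, 12571 and 13487 (log2 fold change -0.72, SE 0.10, adjusted p = 0.000105, chr1:86996093-87006776). The U2 particle protein Snrpa1 (log2 fold change -0.76, adjusted p = 8.74e-05) and the SR protein Srsf4 (log2 fold change -0.70, adjusted p = 0.000115) fell by similar amounts. The 2 members that rose were Prpf8 and Rbfox2. Prpf8, the core of the spliceosome, was read at 7716 to 12155 in sham and 11509 to 18252 in EP (log2 fold change 0.61, SE 0.12, adjusted p = 0.000945). Rbfox2 is a regulator of alternative exons (log2 fold change 1.33, SE 0.29, adjusted p = 0.00156). Outside the list, Elavl1, which stabilizes AU-rich mRNAs, fell (2697 to 5159 in sham, 1569.8 to 2180 in EP, log2 fold change -1.12, SE 0.15, adjusted p = 8.74e-05). Ilf2, a partner of NF90 that binds double-stranded RNA, fell as well (3461 to 5247 in sham, 2304 to 2917 in EP, log2 fold change -0.79, SE 0.10, adjusted p = 8.33e-05).

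Chromatin regulators went both ways, 10 higher and 10 lower of 35 (8 and 12 without the 3 libraries, 5 and 6 in the fit of sham and EP alone). Over all libraries each share was 28.6%, against 18.8% of all genes each way. The histone acetyltransferase Ep300 rose from 208, 843, 216, 140.3 and 797 in sham to 1501, 1391, 1106, 1366 and 1332 in EP (log2 fold change 1.99, SE 0.35, adjusted p = 0.000356). Its paralog Crebbp fell (log2 fold change -0.46, SE 0.10, adjusted p = 0.00183). Smarca2, an ATPase of SWI/SNF remodelling complexes, rose (log2 fold change 0.86, adjusted p = 0.000234). Kdm6b, which removes the repressive H3K27 mark, rose (log2 fold change 0.89, adjusted p = 0.000545), and Ezh1, a methyltransferase for that mark, had a log2 fold change of 0.40 (adjusted p = 0.00224). Ezh2, the form of dividing cells, fell (log2 fold change -0.62, adjusted p = 0.00681). So did Hdac1, a histone deacetylase (log2 fold change -0.74, adjusted p = 0.000151), and Hmgb1, a chromatin protein that acts as an alarm signal outside cells (log2 fold change -1.23, adjusted p = 0.000115).

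A property that the lists did not use moved with the calls, the length of the gene. Protein-coding genes were put into deciles by the genomic span of their longest transcript, introns included. In the shortest decile (134 to 2795 bases) 10.2% of genes were higher and 28.5% lower, with a median log2 fold change of -0.21. In the longest decile (109913 to 2232522 bases) 35.3% were higher and 7.20% lower, with a median of 0.41. Between them the share called lower went down and, past the second decile, the share called higher went up. Without the 3 libraries the shortest decile had 7.26% higher and 23.2% lower, and the longest 24.9% and 5.13%. Across the 15413 protein-coding genes, Spearman's rank correlation between span and the gene's deviation from its mean over the 10 libraries was -0.22, 0.09, -0.17, -0.21 and 0.08 in sham 1 to 5 and 0.2, 0.22, 0.14, 0.11 and 0.16 in EP 1 to 5, a description over genes that share a library. Ribosomal protein genes are short and many of the risers named here are long, such as Lifr (63048 bases) and Tbc1d4 (175229 bases). The part of span in the calls was not tested.

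**Figure D3:**
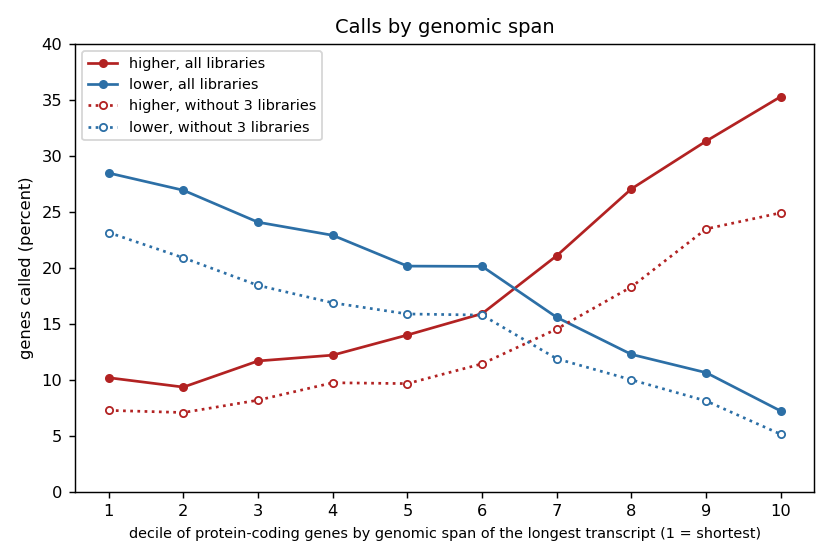
The x axis gives deciles of the 15413 protein-coding genes by genomic span, from the shortest to the longest, and the y axis the percent called higher (red) or lower (blue) in EP, over all libraries (solid) and without sham 4, EP 3 and EP 4 (dotted). The share called higher climbs from 10.2% to 35.3% and the share called lower drops from 28.5% to 7.20%, and the lines without the 3 libraries lie lower in every decile, with the gap for genes called higher widest in the longest.

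Genes that burn fuel were higher in EP. Of 22 genes of fatty acid oxidation 13 were higher and 0 lower, with a median of 0.94, and without the 3 libraries 16 were higher. Ppara, the nuclear receptor that switches on fatty acid use, was read at 115, 164, 82.6, 108 and 141 in sham. EP rats had 478, 532, 290.3, 422 and 340.4 (log2 fold change 1.75, SE 0.32, adjusted p = 0.000452). The highest sham library lay well under the lowest EP library. Ppargc1a, the coactivator that drives mitochondrial biogenesis, went from 88.6, 106, 22.3, 128 and 90.4 in sham to 791, 936, 662, 840.3 and 360.4 in EP (log2 fold change 3.16, SE 0.62, adjusted p = 0.000759, chr14:63095720-63187009). Acsl1, which activates fatty acids, had a log2 fold change of 1.06 (adjusted p = 0.00208). Acads and Acadm, dehydrogenases for short and medium chains, had log2 fold changes of 1.18 and 1.998 (adjusted p = 0.00795 and 0.0121). Pdk4, the kinase that shuts pyruvate out of the mitochondrion, had 248, 523, 208, 118 and 309 in sham. EP values were 7304, 8045, 781, 2317 and 2439 (log2 fold change 3.60, SE 0.81, adjusted p = 0.00197, chr4:30546664-30556814), highest in EP 1 and EP 2. Its relative Pdk2 rose (log2 fold change 2.21, adjusted p = 0.00273). Cs, citrate synthase, rose too (log2 fold change 1.38, adjusted p = 0.00631), and both genes showed no overlap of the groups. Of 19 genes of the tricarboxylic acid cycle 11 were higher and 0 lower (median 0.89). The higher count was 9 without the 3 libraries, 5 without EP 1 or without EP 2, 6 without sham 1 or without sham 5 and 7 without sham 3.

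Oxidative phosphorylation, the step after the cycle, was less uniform. Of 75 nuclear genes 7 were higher and 1 lower, under the 18.8% of all genes called each way. The count of higher genes was 3 without EP 1, 4 without EP 2 or without sham 5, 14 with DESeq2 and 19 in the fit of sham and EP alone. Sdha, of complex II, rose (6566 to 9771 in sham, 14375 to 29505 in EP, log2 fold change 1.41, SE 0.41, adjusted p = 0.00969). Ndufs1, of complex I, rose (log2 fold change 1.63, SE 0.47, adjusted p = 0.0101), and so did Uqcrc2, of complex III (log2 fold change 1.25, SE 0.34, adjusted p = 0.00629). Cox6a1, the form of a complex IV subunit found in most tissues, fell (log2 fold change -0.58, SE 0.14, adjusted p = 0.00272).

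Of 21 genes of glycolysis 3 were higher (14.3%) and 4 lower (19.0%), shares like or under that of all genes. The counts were 6 and 5 with DESeq2, 7 and 2 in the fit of sham and EP alone, and 5 higher without sham 1. Pfkm, the muscle phosphofructokinase, rose from 6944, 6498, 5532, 3421 and 2803 in sham to 64711, 55575, 13558, 30676 and 29373 in EP (log2 fold change 2.83, SE 0.78, adjusted p = 0.0076). Pfkp, the platelet form, fell (2045 to 6184 in sham, 1546 to 2722 in EP, log2 fold change -0.88, SE 0.23, adjusted p = 0.00528). Hk2, the insulin-responsive hexokinase, rose (log2 fold change 1.46, adjusted p = 0.00107). Slc2a1, the basal glucose transporter, fell from 9891, 10791, 11484, 5454 and 8544 in sham to 4681, 4012, 4139, 4086 and 5254 in EP (log2 fold change -1.02, SE 0.22, adjusted p = 0.00123). Eno1, the enolase of most tissues, fell (log2 fold change -0.59, adjusted p = 0.00132). The others of the list were the muscle enolase Eno3 and the mutase Pgam1. Eno3 had a log2 fold change of 3.04 (adjusted p = 0.0385, and 0.0841 without the 3 libraries, and it did not pass without sham 4, sham 5, EP 1, EP 2, EP 4 or EP 5 either). Pgam1 had a log2 fold change of -0.42 (adjusted p = 0.00828). Of the lipid genes, Acacb, whose malonyl-CoA checks fatty acid import into mitochondria, rose (888 to 2129 in sham, 3828 to 9112 in EP, log2 fold change 2.10, SE 0.46, adjusted p = 0.00159). Plin4, a coat protein of lipid droplets, rose (132 to 1029 in sham, 1589.7 to 8732 in EP, log2 fold change 3.62, SE 0.74, adjusted p = 0.00096). Adipoq, the adipocyte hormone adiponectin, had 359.6 to 2115 in sham and 795 to 4664 in EP and did not pass (adjusted p = 0.293).

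Skeletal muscle transcripts moved with these energy genes, and their part was not tested. Of 25 muscle genes 14 were higher and 0 lower (median 3.03), which was 2 without the 3 libraries, 5 without sham 4 or without EP 2 and 6 without sham 5 or without EP 1. The higher count was 20 in the fit of sham and EP alone, 18 with DESeq2 and 11 with edgeR, and the median without the 3 libraries was 3.23. In 10 of the 25 every EP library lay above every sham library (8.07% of all genes did so). The mean of the muscle list over its genes, as a log2 deviation from the mean of the 10 libraries, ran from -3.21 to 0.19 in sham and from 0.43 to 2.6 in EP. The means of the fatty acid oxidation list ran from -0.99 to -0.36 in sham and from 0.12 to 1.14 in EP. EP 1 was the highest library and EP 3 the lowest EP library in both lists. Pfkm is a muscle form, as are Cpt1b (log2 fold change 2.996, adjusted p = 0.00728) and Fabp3 (log2 fold change 3.38, adjusted p = 0.0166), which are counted in the fatty acid oxidation list.

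**Figure D4:**
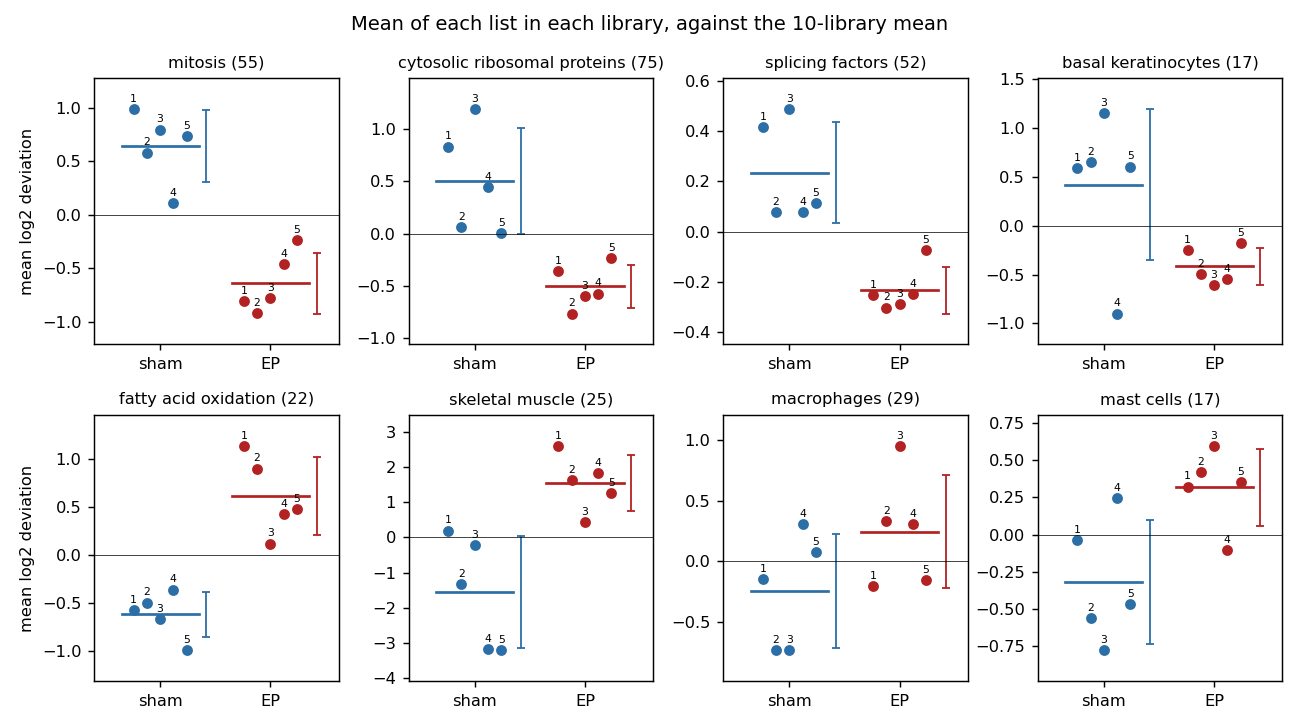
Each point is 1 library, numbered by rat, and gives the mean over the tested members of a list (their number in brackets) of the log2 value minus that gene's mean over the 10 libraries, with the group mean as a line and the SD as a bar. For mitosis the sham libraries lie between 0.11 and 0.99 and the EP libraries between -0.92 and -0.24, for fatty acid oxidation between -0.99 and -0.36 and between 0.12 and 1.14, whereas for basal keratinocytes sham 4 lies under all EP libraries.

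A set of genes that glucocorticoids are known to induce was higher in EP. Of 20 such genes 9 were higher and 1 lower (median 0.58), and the counts were the same without the 3 libraries. Pdk4, described above, is 1 of the 9 and is also counted in the tricarboxylic acid cycle list. Klf9, a transcription factor that responds to glucocorticoid and thyroid hormone and also to the clock, was read at 625, 2096, 849.7, 1587 and 2439 in sham. EP libraries held 4663, 6734, 6131, 5053 and 4219.8 (log2 fold change 1.98, SE 0.28, adjusted p = 0.000111, chr1:240908483-240933198). Zbtb16, a zinc finger factor, had 56.9, 193, 111, 109.8 and 257 in sham. EP rats had 1235, 1168, 465, 1055 and 392 (log2 fold change 2.58, SE 0.43, adjusted p = 0.000261, chr8:52985313-53146953). Both show every EP library above every sham library, which was part of the rule for genes chosen by their t value in limma. Per1, which is a clock gene as well, had the smallest p of the list (1187 to 2213 in sham, 5405 to 9258 in EP, log2 fold change 1.98, SE 0.15, adjusted p = 1.38e-07). Glul, glutamine synthetase, rose (log2 fold change 1.56, adjusted p = 0.000372). Dusp1, a phosphatase that turns off MAP kinases, rose (log2 fold change 0.80, adjusted p = 0.00199), and so did Tsc22d3, the glucocorticoid-induced leucine zipper (log2 fold change 0.75, adjusted p = 0.00236). The receptor gene Nr3c1 rose by a small step (log2 fold change 0.30, SE 0.09, adjusted p = 0.017, adjusted p = 0.0519 without EP 1). Fkbp5 and Sgk1, common readouts of the receptor, had log2 fold changes of 0.38 and -0.19 and did not pass (adjusted p = 0.358 and 0.366). Mt2A, a metallothionein, was the 1 member that fell (log2 fold change -1.20, SE 0.36, adjusted p = 0.0134, adjusted p = 0.0521 without sham 3). Clock genes moved beside them, 14 of 19 higher in EP and 2 lower, Arntl (BMAL1, log2 fold change -2.36, adjusted p = 1.3e-05) and its relative Npas2 (log2 fold change -1.55, adjusted p = 0.000554). The hour of sampling is not given by group in the sources used here, and its part was not tested.

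By the t value of limma, with muscle, nerve and clock genes set aside, the strongest rise among well expressed genes was that of Tbc1d4 (AS160), the Rab regulator that releases glucose transporters to the cell surface. It held 522, 956, 589, 689 and 885 in sham. EP rats had 1913, 2522, 2473, 2973 and 1733 (log2 fold change 1.68, SE 0.20, adjusted p = 4.01e-05, chr15:85930044-86105273). Inppl1 (SHIP2), a lipid phosphatase that dampens insulin signals, rose (1229.7 to 2745 in sham, 3827 to 6561 in EP, log2 fold change 1.43, SE 0.19, adjusted p = 9.16e-05). Lpin1, a phosphatidate phosphatase and coactivator of Ppara, rose (389 to 754 in sham, 1390.4 to 2597 in EP, log2 fold change 1.81, SE 0.26, adjusted p = 0.000115). Igf1r, the IGF-1 receptor, had 268, 746, 220.3, 287 and 742 in sham. EP values were 1165, 1067, 948, 962 and 1071 (log2 fold change 1.40, SE 0.26, adjusted p = 0.000554). Its ligand Igf1 rose (log2 fold change 1.26, adjusted p = 0.00116). Of the proteins that bind the ligand, Igfbp5 rose (log2 fold change 1.30, adjusted p = 0.0044) and Igfbp3 fell (4246 to 25861 in sham, 3181 to 6950.1 in EP, log2 fold change -1.67, SE 0.35, adjusted p = 0.0011).

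Some cytokine receptor genes were higher in EP. Lifr, the receptor for leukaemia inhibitory factor, was read at 371, 2069.6, 281, 596 and 1801 in sham. EP libraries held 5569.6, 5059, 5799, 6793 and 3230 (log2 fold change 2.78, SE 0.39, adjusted p = 0.000105, chr2:56426367-56489415). Il6st (gp130), the signalling chain that the family shares, had 1864, 9290, 1035, 1226 and 7143 in sham. EP rats had 14062, 14776, 12907, 10092 and 10695 (log2 fold change 2.17, SE 0.41, adjusted p = 0.000568, chr2:44289393-44314944). In both genes sham 2 and sham 5 were several times above the other 3 sham libraries and yet under every EP library. The ligand gene Lif had a log2 fold change of 0.89 (adjusted p = 0.0353, and 0.187 without the 3 libraries, and it did not pass without sham 3, sham 4, EP 4 or EP 5 either). Il1rap, the shared chain of the interleukin-1 family, rose (log2 fold change 1.51, adjusted p = 0.000937). Il1r2, its decoy receptor, rose from 241, 277, 271, 276 and 275 in sham to 572, 551, 778, 417 and 757 in EP (log2 fold change 1.16, SE 0.22, adjusted p = 0.000538). The cytokines Il1b and Tnf had log2 fold changes of 0.65 and -0.38 and did not pass (adjusted p = 0.574 and 0.726). Of 44 cytokines and receptors 8 were higher (18.2%, near the 18.8% of all genes) and 3 lower, and the counts were 5 and 0 without the 3 libraries. The 3 lower were Il16 (log2 fold change -1.08), Il17ra (log2 fold change -0.56) and Il34 (log2 fold change -0.48), with adjusted p = 0.101, 0.0785 and 0.0537 without these libraries. Il16 did not pass without sham 1 or EP 2, and Il17ra without sham 1, sham 4, EP 1 or EP 2. Il34 did not pass without sham 2, sham 3, sham 5, EP 2, EP 3 or EP 5, nor with edgeR. Among the higher was Il13ra1, a chain of the interleukin-13 receptor (log2 fold change 1.81, SE 0.40, adjusted p = 0.00157).

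**Figure D5:**
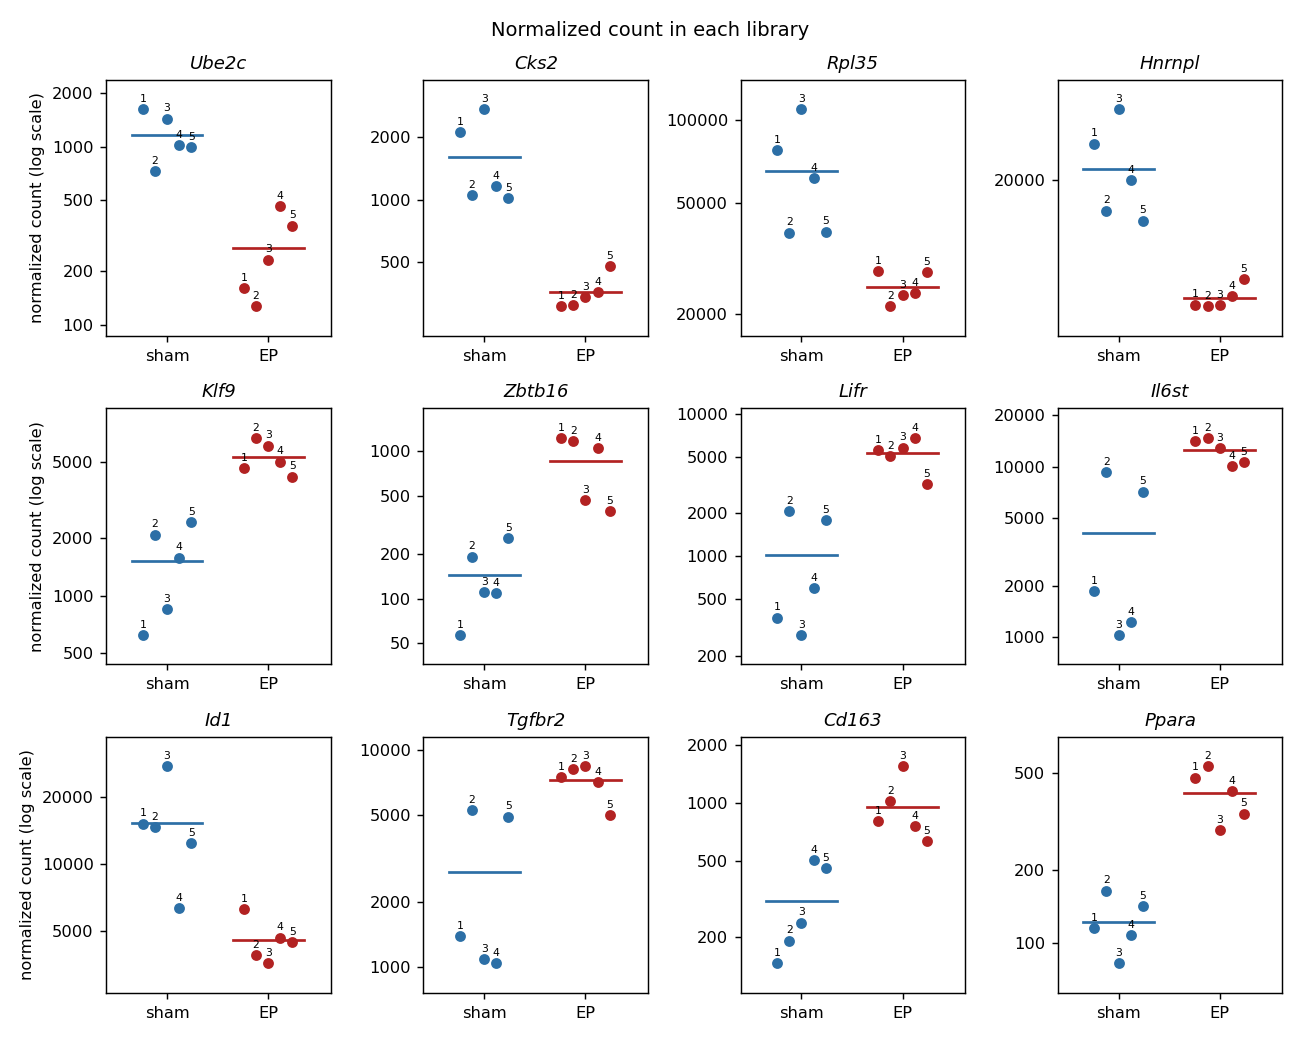
Normalized counts of 12 genes in each library on a log axis, with points numbered by rat and the group mean as a line. In Ube2c, Cks2, Rpl35, Hnrnpl and Id1 every EP library lies below every sham library, and in Klf9, Zbtb16, Lifr, Il6st, Cd163 and Ppara above, whereas for Tgfbr2 EP 5 lies between sham 5 and sham 2. For the genes chosen by t value, Cks2 among them, the lack of overlap was part of the rule.

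In the BMP and TGF-beta pathway 13 of 52 genes were higher and 9 lower, where 18.8% of all genes were called each way. The counts were 10 and 11 without the 3 libraries and 6 and 4 in the fit of sham and EP alone, and 14 were lower without sham 4. Among the receptors, Tgfbr2 had 1393, 5300.2, 1094, 1043 and 4944 in sham. EP values were 7482, 8182, 8422, 7126 and 5036 (log2 fold change 1.76, SE 0.34, adjusted p = 0.000681). Bmpr1a (log2 fold change 0.85, adjusted p = 0.00116) and Bmpr2 (log2 fold change 1.04, adjusted p = 0.003) rose. So did Smad4, the shared mediator (947 to 2616 in sham, 2887 to 3822 in EP, log2 fold change 1.06, SE 0.21, adjusted p = 0.000718). Skil, a repressor of Smad-driven genes, rose (log2 fold change 1.77, adjusted p = 0.000848). Of the ligands, Bmp2 fell from 1659, 1150.4, 2029.8, 752 and 1482 in sham to 706, 474, 381, 616 and 507 in EP (log2 fold change -1.35, SE 0.24, adjusted p = 0.000378). Tgfb1 fell (log2 fold change -0.50, adjusted p = 0.0081) and Bmp6 rose (log2 fold change 2.06, adjusted p = 0.00163). The direct targets Id1 and Id3, which block differentiation factors, fell. Id1 went from 15212, 14680, 27572, 6311 and 12372 in sham to 6266, 3873, 3561, 4657 and 4437 in EP (log2 fold change -1.61, SE 0.27, adjusted p = 0.000277, chr3:148215540-148216718). Id3 went the same way (4919 to 13992 in sham, 2647 to 4545 in EP, log2 fold change -1.35, SE 0.22, adjusted p = 0.000239).

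Of 55 genes of the Wnt pathway 5 were higher and 7 lower, both under the share of all genes, and without sham 4 the lower count was 12. The co-receptor Lrp6 rose from 898, 3447, 795, 636 and 3210.3 in sham to 5519, 5845, 5358, 4422 and 4063 in EP (log2 fold change 1.85, SE 0.33, adjusted p = 0.000409). The receptor Fzd4 rose (1682 to 4723 in sham, 6745 to 11051 in EP, log2 fold change 1.59, SE 0.29, adjusted p = 0.000518), and so did Fzd7 (log2 fold change 0.94, adjusted p = 0.00259). The co-receptor Lrp5 had a log2 fold change of 0.74 (adjusted p = 0.00308, and 0.0687 without the 3 libraries). The ligand Wnt9a completes the 5 (log2 fold change 1.85, adjusted p = 0.0049, and 0.076 without them). The ligand Wnt6, made by epithelium, went from 949, 1089, 1223, 339 and 808 in sham to 326, 227, 161, 224 and 323 in EP (log2 fold change -1.73, SE 0.32, adjusted p = 0.00054). Wnt10a fell as well (log2 fold change -1.48, SE 0.38, adjusted p = 0.00497). So did the inhibitor Sostdc1 (1315 to 8958 in sham, 672 to 1534 in EP, log2 fold change -1.75, SE 0.44, adjusted p = 0.00433) and the receptor Ror1 (log2 fold change -0.64, adjusted p = 0.00183). Notch signalling gave Rbpj, its DNA-binding effector, at a log2 fold change of 1.14 (adjusted p = 0.000285) and the target Hes1 at a log2 fold change of -0.54 (adjusted p = 0.00568).

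Among growth factors and receptor kinases 11 of 39 were higher and 5 lower (5 and 3 in the fit of sham and EP alone, 8 and 3 without the 3 libraries, 7 higher without sham 1, 3 lower without sham 3 or without EP 2). Over all libraries these shares were 28.2% and 12.8%, against 18.8% of all genes each way. The 5 that fell were Pdgfc, Bdnf, Fgfr2 (log2 fold change -0.77), Hbegf (log2 fold change -0.997) and Ntf3 (log2 fold change -0.72), and Hbegf and Ntf3 had adjusted p = 0.109 and 0.148 without the 3 libraries. Met, the receptor of hepatocyte growth factor, rose from 333, 1381, 291, 344 and 1284 in sham to 1631, 2828, 2604, 1591 and 1696 in EP (log2 fold change 1.82, SE 0.36, adjusted p = 0.000842). Fgf10, a fibroblast signal to epithelium, rose (log2 fold change 1.05, adjusted p = 0.00338). Pdgfc, a ligand of the PDGF receptor alpha, fell from 1423, 1189, 2177, 1718 and 1209.6 in sham to 699, 681, 749.8, 726 and 735 in EP (log2 fold change -1.06, SE 0.15, adjusted p = 0.000115). Bdnf, a neurotrophin, fell (250 to 1636 in sham, 87.4 to 409 in EP, log2 fold change -1.95, SE 0.45, adjusted p = 0.00227). Angpt1, the Tie2 ligand that quiets vessels, rose from 30.6, 440.1, 17, 87.4 and 243 in sham to 579.6, 1200.1, 1132, 231 and 497 in EP (log2 fold change 2.81, SE 0.63, adjusted p = 0.00181), with sham 2 above EP 4.

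Epithelial genes of the basal layer were lower and several genes of the cornified layer higher. Of 17 basal genes 8 were lower and 0 higher (median -0.96), and 10 were lower without the 3 libraries. Sham 4 had the lowest basal level of all, and the count was 4 without sham 1, 2 without sham 3, 5 without sham 2, sham 5, EP 2, EP 3 or EP 4, and 3 in the fit of sham and EP alone. Lamb3, the laminin chain that anchors basal cells, was read at 6429, 6291, 11434, 1392 and 5787 in sham. EP libraries held 2443, 1802, 1259.9, 1642 and 2223 (log2 fold change -1.50, SE 0.35, adjusted p = 0.0026), with sham 4 inside the EP range. Tp63, the master regulator of stratified epithelium, fell (3988 to 34349 in sham, 3661 to 10021 in EP, log2 fold change -1.29, SE 0.41, adjusted p = 0.0162, adjusted p = 0.0617 without sham 3). Gja1, connexin 43 of gap junctions (log2 fold change -1.49, adjusted p = 0.00532), and Perp, a p63 target in desmosomes (log2 fold change -1.33, adjusted p = 0.0121), fell too. Of 47 genes of the upper layers 8 were higher and 0 lower, a share like the 18.8% of all genes. Sprr3, a cornified envelope protein of moist mucosa, had 1627, 10445, 1416, 555 and 4602 in sham. EP rats had 22867, 11525, 5905, 6204 and 29566 (log2 fold change 2.44, SE 0.61, adjusted p = 0.00394). Rptn and Hrnr, fused-type S100 proteins of cornified cells, had log2 fold changes of 1.96 and 4.20 (adjusted p = 0.00921 and 0.00571). For Hrnr the sham range of 14.2 to 6794 overlapped the EP range of 3281 to 17443. The higher count was 14 without sham 2, 5 without sham 4 or without EP 1, and 1 in the fit of sham and EP alone. The lower count was 5 without sham 4, 2 without EP 5 or with DESeq2 and 1 without the 3 libraries.

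Single matrix genes rose, in shares near that of all genes. Of 48 proteoglycans and matricellular proteins 10 were higher and 0 lower. That count was 6 without the 3 libraries, sham 1 or EP 3, 5 without sham 4, 4 without EP 1 or without EP 2 and 2 in the fit of sham and EP alone. Prelp, which anchors basement membrane to collagen, rose (2411 to 9254 in sham, 4674 to 12405 in EP, log2 fold change 1.15, SE 0.29, adjusted p = 0.00412). Col14a1, a collagen that coats fibrils in mature connective tissue, rose from 879.5, 3724, 1415, 707 and 2040 in sham to 9146, 6621, 3940.5, 4903 and 4691 in EP (log2 fold change 1.94, SE 0.42, adjusted p = 0.00158). Col13a1, a transmembrane collagen, fell (685 to 1555 in sham, 329.6 to 671 in EP, log2 fold change -0.96, SE 0.25, adjusted p = 0.00506). Col1a1 had a log2 fold change of -0.25 and did not pass (adjusted p = 0.611). Inhibitors of matrix metalloproteinases rose, Timp2 (4107 to 10049 in sham, 8237 to 15726 in EP, log2 fold change 0.97, SE 0.21, adjusted p = 0.00159) and Timp3 (log2 fold change 1.18, SE 0.28, adjusted p = 0.00249). Among proteases, Adamts12 rose (log2 fold change 1.30, adjusted p = 0.00236), and Htra1 (log2 fold change -0.76, adjusted p = 0.00258) and Plat, tissue plasminogen activator (log2 fold change -0.79, adjusted p = 0.00384), fell. Mmp9, a gelatinase of neutrophils and osteoclasts, was read at 196 to 910 in sham and 128 to 461 in EP and did not pass (adjusted p = 0.732).

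Of 11 lymphatic endothelial genes 4 were higher (36.4%) and 1 lower (9.09%), against 18.8% of all genes each way. Mmrn1, a multimerin of lymphatic vessels, was read at 729.8, 1486, 212, 894 and 1232 in sham. EP values were 4256, 4685, 2585, 2581 and 2419 (log2 fold change 2.06, SE 0.42, adjusted p = 0.000909). Prox1, which sets lymphatic identity, held 18.4 to 266 in sham and 258 to 503 in EP (log2 fold change 1.99, SE 0.50, adjusted p = 0.00398). Lyve1, a hyaluronan receptor of lymphatics and of some tissue macrophages, rose from 450.3, 665, 328, 728 and 551 in sham to 1783, 2207, 1281, 1047 and 1609 in EP (log2 fold change 1.55, SE 0.33, adjusted p = 0.00117). The fourth, Nrp2, had a log2 fold change of 0.57 (adjusted p = 0.0182, and 0.101 without the 3 libraries, 0.0681 at most with 1 library left out, sham 1 or sham 3), and Pdpn, which basal keratinocytes also make, fell (log2 fold change -0.75, adjusted p = 0.00876). Vwf, made by blood endothelium, rose (1959 to 6165 in sham, 6601 to 10907 in EP, log2 fold change 1.29, SE 0.33, adjusted p = 0.00467). Cdh5 and Kdr, also of endothelium, had log2 fold changes of 0.24 and 0.27 and did not pass (adjusted p = 0.497 and 0.379).

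Of 29 macrophage genes 6 were higher and 0 lower (20.7%, near the 18.8% of all genes), and the counts were the same without the 3 libraries. The 6 are receptors of resident, scavenging macrophages. Cd163, for haemoglobin with haptoglobin, was read at 146, 191, 237, 504 and 456 in sham. EP values were 805, 1022, 1552, 757 and 629 (log2 fold change 1.72, SE 0.38, adjusted p = 0.00177, chr4:156752082-156785467). Stab1 rose (570.4 to 1718 in sham, 1959 to 3164 in EP, log2 fold change 1.39, SE 0.29, adjusted p = 0.00102). Msr1, a scavenger receptor, rose (log2 fold change 1.86, SE 0.44, adjusted p = 0.00282). Mrc1, the mannose receptor, rose (log2 fold change 1.03, SE 0.31, adjusted p = 0.0127), and the other 2 were Folr2 (log2 fold change 1.11, SE 0.33, adjusted p = 0.0119) and Lyve1. Adgre1 (F4/80), a marker of macrophages as a whole, had a log2 fold change of 0.87 and did not pass (adjusted p = 0.106). Of 17 mast cell genes 5 were higher (29.4%) and 1 lower (5.88%), against 18.8% of all genes each way. Kit, the receptor for stem cell factor, went from 834, 1828, 528, 2277 and 1810 in sham to 2718, 7412, 5859, 2593 and 3491 in EP (log2 fold change 1.67, SE 0.49, adjusted p = 0.0118). Il1rl1 (ST2), the interleukin-33 receptor, went from 46.4, 37.3, 22.3, 148 and 89.4 in sham to 216, 205, 311, 244 and 135 in EP (log2 fold change 1.93, SE 0.44, adjusted p = 0.00206), with sham 4 above EP 5. The protease Cpa3 (log2 fold change 1.40, adjusted p = 0.0128) and the vesicle regulator Rab27b (log2 fold change 1.45, adjusted p = 0.00135) also rose. The chymase Cma1 had a log2 fold change of 1.20 (adjusted p = 0.0203, and 0.0614 without EP 1). The 1 member that fell, Slc18a2, had a log2 fold change of -0.60 (adjusted p = 0.0269, and 0.196 without the 3 libraries, and it did not pass without sham 1, sham 3, sham 4, EP 4 or EP 5). Of 23 neutrophil genes 4 were higher (17.4%, near the 18.8% of all genes) and 0 lower: Il1r2, Retnlg (log2 fold change 2.37, adjusted p = 0.00399), Cxcr2 (log2 fold change 1.12, adjusted p = 0.014) and Ngp (log2 fold change 2.70, adjusted p = 0.0279). Without the 3 libraries the 2 that passed were Il1r2 and Slpi, and Retnlg, Cxcr2 and Ngp had adjusted p = 0.0581, 0.0796 and 0.136. Ngp also did not pass without sham 2, sham 4, EP 2 or EP 4. S100a8, a calgranulin abundant in neutrophils and in inflamed epithelium, had a log2 fold change of -0.81 and did not pass (adjusted p = 0.302).

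Irf8, a transcription factor of dendritic cells and monocytes, fell from 14388, 4738, 8047, 9167 and 9166 in sham to 2719, 2303, 3057, 3949.6 and 4599 in EP (log2 fold change -1.41, SE 0.30, adjusted p = 0.00144). Pycard (ASC), the adaptor of inflammasomes, fell from 2460.3, 1368, 2769, 2543 and 1619 in sham to 598, 723, 913, 1181 and 1318 in EP (log2 fold change -1.19, SE 0.27, adjusted p = 0.00193). Of 35 genes of Toll-like receptors and NF-kB 7 were higher (a share near the 18.8% of all genes) and 2 lower, with 4 and 3 without the 3 libraries. Tlr5, which senses flagellin, went from 154, 389, 93.1, 215 and 489 in sham to 487, 909.6, 859.7, 367 and 726 in EP (log2 fold change 1.48, SE 0.36, adjusted p = 0.00351). Tlr8, which senses RNA, rose (57.7 to 209 in sham, 159 to 361 in EP, log2 fold change 1.18, SE 0.34, adjusted p = 0.00938). So did Traf6, the ligase downstream of them (log2 fold change 1.45, adjusted p = 0.000203). Nfkb1 and Rela, the main NF-kB subunits, had log2 fold changes of -0.09 and -0.16 and did not pass (adjusted p = 0.554 and 0.18). Of 41 interferon-stimulated genes 5 were higher and 0 lower (12.2%, under the background of 18.8%). The RNA sensors Ddx58 (log2 fold change 2.02, SE 0.46, adjusted p = 0.00208) and Ifih1 (log2 fold change 0.84, SE 0.23, adjusted p = 0.00675) rose. So did Trim25, which activates Ddx58 (log2 fold change 1.42, SE 0.32, adjusted p = 0.0021), and the guanylate-binding protein Gbp1 (log2 fold change 4.04, SE 1.11, adjusted p = 0.00739). The fifth was Xaf1 (log2 fold change 1.10, SE 0.40, adjusted p = 0.0371, adjusted p = 0.186 without the 3 libraries). Xaf1 also did not pass with edgeR or DESeq2, or with sham 1, sham 3, sham 4 or any of EP 1 to EP 4 left out. Lists of B cells, T cells, dendritic cells, class II antigen presentation and chemokines had 1 to 4 members lower, and each of these counts changed by more than 1.5 times when some of the libraries were left out singly, from 0 to 6 in all. With DESeq2 over all libraries 8 B cell genes, 9 T cell genes and 7 class II genes were lower, against 1, 3 and 4 with limma. Their levels were spread widely within both groups, the mean log2 deviation of the T cell list from -1.65 in sham 3 to 1.93 in sham 1 and from -1.56 in EP 1 to 0.68 in EP 4.

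Bone genes are part of the sample only as far as bone cells or their precursors came with the gingiva. Of 23 genes of bone formation and mineral 2 were higher and 4 lower (8.70% and 17.4%, both under the 18.8% of all genes), with a median of -0.78. Phex, an endopeptidase of osteoblasts and osteocytes, rose from 41.1, 57.8, 117, 28.5 and 182 in sham to 438, 321, 228, 389 and 229.8 in EP (log2 fold change 2.17, SE 0.44, adjusted p = 0.00089). Smpd3, a sphingomyelinase needed for mineral, rose (1140.3 to 1728 in sham, 2020.2 to 5798 in EP, log2 fold change 1.29, SE 0.30, adjusted p = 0.00263). Dlx5, a homeobox factor of osteoblasts, fell (805 to 5178 in sham, 513 to 1031 in EP, log2 fold change -1.41, SE 0.40, adjusted p = 0.0091). The others that were lower were Msx2, Pth1r and Enpp1. Msx2, also a homeobox factor, had a log2 fold change of -2.25 (adjusted p = 0.0231) and did not pass without sham 1, sham 3 or EP 3 (at most 0.0709). Pth1r, the receptor of parathyroid hormone, had a log2 fold change of -1.04 (adjusted p = 0.0051, and 0.0539 without the 3 libraries). Enpp1, which makes pyrophosphate, had a log2 fold change of -0.51 (adjusted p = 0.019) and did not pass without sham 4 or EP 2 (at most 0.0732). Bglap (osteocalcin) and Ibsp had log2 fold changes of -1.04 and -1.47 and did not pass (adjusted p = 0.326 and 0.144). Of 15 osteoclast genes 4 were higher (26.7%, against 18.8% of all genes) and 0 lower. Beside Traf6 they were Clcn7, the chloride exchanger of the ruffled border (log2 fold change 0.73, adjusted p = 0.00109), and its partner Ostm1 (log2 fold change 0.80, adjusted p = 0.00305). The last was Itgb3, an integrin chain (log2 fold change 1.11, adjusted p = 0.033, and 0.127 without the 3 libraries, and it did not pass with edgeR or DESeq2 or without sham 3, sham 4, EP 1, EP 2, EP 3 or EP 5). Acp5 and Ctsk, the defining enzymes of osteoclasts, had log2 fold changes of -0.25 and -0.48 and did not pass (adjusted p = 0.571 and 0.238).

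Of 28 genes of endoplasmic reticulum chaperones and stress 7 were higher (25%) and 0 lower, where 18.8% of all genes were called each way. Of 37 of protein translocation and N-glycosylation 6 were higher (16.2%) and 2 lower, and of 36 of lysosome and autophagy 10 (27.8%) and 1. The higher counts were 2, 5 and 4 in the fit of sham and EP alone. The first list had its highest mean log2 deviation in sham 4 (0.73), EP 3 (0.65) and EP 4 (0.60), whose part was not tested. Atf6, a sensor of unfolded protein in the endoplasmic reticulum, was read at 1209.6, 3537, 1067, 1337 and 3574 in sham. EP libraries held 5232, 6322, 7254, 5989 and 4472 (log2 fold change 1.64, SE 0.27, adjusted p = 0.000268). Lman1, a cargo receptor for export from that organelle, rose (860.2 to 2771 in sham, 3322 to 8673 in EP, log2 fold change 1.66, SE 0.34, adjusted p = 0.00106). Sec24a, of the COPII coat, rose (570.4 to 1812 in sham, 2412 to 4306 in EP, log2 fold change 1.60, SE 0.30, adjusted p = 0.000552). Scarb2, a lysosomal membrane protein (log2 fold change 1.70, adjusted p = 0.000285), and Wipi1, an early autophagy factor (log2 fold change 1.36, adjusted p = 0.000917), were higher in EP.

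Redox enzymes went both ways, 5 higher and 9 lower of 35 (5 and 6 without the 3 libraries, 4 lower in the fit of sham and EP alone). Over all libraries these shares were 14.3% and 25.7%, against 18.8% of all genes each way. Catalase, Cat, rose from 5252, 5015, 4643, 7244 and 4777 in sham to 9853, 10939, 8615, 8649 and 8353 in EP (log2 fold change 0.80, SE 0.20, adjusted p = 0.00401). Sod2, mitochondrial superoxide dismutase, rose (4487 to 7551 in sham, 8351 to 14679 in EP, log2 fold change 1.12, SE 0.31, adjusted p = 0.00852). Gsta1 (log2 fold change 1.23), Hmox1 (log2 fold change 0.80) and Prdx3 (log2 fold change 1.09) were the others that rose. Prdx1, a peroxiredoxin, fell (17593 to 35155 in sham, 10915 to 17669 in EP, log2 fold change -0.84, SE 0.17, adjusted p = 0.000917). So did the glutathione transferase Gsta4 (log2 fold change -1.24, adjusted p = 0.00119) and Ftl1, ferritin light chain (log2 fold change -1.09, adjusted p = 0.000874). Nqo1 and Gclc, usual readouts of the redox sensor NRF2, had log2 fold changes of -0.65 and -0.21 and did not pass (adjusted p = 0.121 and 0.456). Transcripts of red blood cells were higher, with Hba-a1, an alpha globin whose copies share reads, at 3822, 2428, 1955, 4675 and 2462 in sham. EP rats had 14771, 10642, 8563, 15482 and 17175 (log2 fold change 2.15, SE 0.33, adjusted p = 0.000169).

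The remaining genes with the strongest changes by t value belong to no list. On the rising side, Fam13a, a regulator of Wnt signalling, went from 160.3, 762, 294, 547 and 613 in sham to 2203, 2861, 2496, 1694 and 1281 in EP (log2 fold change 2.29, SE 0.31, adjusted p = 8.74e-05). Klhl24, an adaptor that marks a basal keratin for destruction, rose (879.8 to 1831 in sham, 1986 to 3737 in EP, log2 fold change 1.39, SE 0.18, adjusted p = 8.74e-05). Gda, guanine deaminase (log2 fold change 2.34), Tshz2, a zinc finger factor (log2 fold change 2.09), and Tent5a, a poly(A) polymerase of collagen mRNAs (log2 fold change 1.80), rose with adjusted p = 0.000105, 0.000105 and 0.000122. Crybg3 (log2 fold change 1.68), Fry (log2 fold change 1.61), Pgpep1 (log2 fold change 1.55), Gna11, a G protein alpha subunit (log2 fold change 1.24), and Ube2q2 (log2 fold change 1.24) followed with adjusted p from 0.000105 to 0.000133. On the falling side stood Arpc4, a subunit of the actin-branching Arp2/3 complex, with 11387, 6638, 11354, 10387 and 8310.1 in sham. EP libraries held 4506, 4245, 4313, 5476 and 5137 (log2 fold change -0.999, SE 0.12, adjusted p = 3.44e-05). Atp1b3, a beta chain of the sodium pump, fell (20601 to 46910 in sham, 8895 to 11871 in EP, log2 fold change -1.40, SE 0.17, adjusted p = 4.47e-05). Prnp, the prion protein (log2 fold change -1.05), Nab2, a corepressor of EGR factors (log2 fold change -0.97), Zfp821 (log2 fold change -1.09) and Ppial4d, a cyclophilin A-like gene whose reads may be shared with near-identical copies (log2 fold change -1.80), fell with adjusted p = 8.74e-05, 8.74e-05, 8.64e-05 and 8.74e-05. In these genes no EP library overlapped the sham group, which was part of the rule that chose them.

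Some of the genes named here lost their call in other fits. In the fit of the sham and EP libraries alone, 35 of them did not pass: Zmat3, Rb1, Rfc3, Eif3c, Pfkp, Nr3c1, Mt2A, Lif, Bmpr2, Tgfb1, Lrp5, Wnt10a, Fgfr2, Ntf3, Tp63, Gja1, Perp, Rptn, Hrnr, Prelp, Nrp2, Pdpn, Folr2, Slc18a2, Cxcr2, Ngp, Tlr8, Trim25, Xaf1, Itgb3, Hmox1, Il17ra, Il34, Enpp1 and Pgam1. With single libraries left out, Fgfr2 did not pass without sham 3 (adjusted p = 0.072), Hmox1 without EP 5 (adjusted p = 0.0528), Prdx3 without sham 3, sham 5 or EP 1 (at most 0.0606), Hbegf without sham 3, EP 2 or EP 3 (at most 0.0698) and Ntf3 without sham 1, EP 2 or EP 4 (at most 0.0769). Cxcr2 and Hbegf did not pass with edgeR, and Hrnr passed with neither edgeR nor DESeq2. Conversely, Adgre1, Fkbp5 and Nqo1 passed without sham 4, Nqo1 also without EP 5, and Rela without sham 4, EP 3 and EP 4. The genes named as not passing, with Krt5, Krt13 and Slpi, were chosen after their values were seen, as usual readouts of their cell type or pathway.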

How the data were processed

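Gingival RNA of 25 rats was sequenced as total RNA after ribosomal depletion, and the 5 sham and 5 EP libraries are compared here. The authors deposited 1 table of 41078 transcripts (Rnor 6.0) whose signal values are whole reads divided by 1 size factor per library. DESeq2 is named in the submitters' processing notes, and the aligner and counter are not given in the sources used here, so reads of near-identical copies or of overlapping genes may be shared between them. Whole reads were recovered from the values (100% of values within 0.01 of a whole number). Transcripts were summed per gene symbol and chromosome, and 840 blank lines were left out. The 396 transcripts without a symbol were kept under their own identifiers. Of 30547 genes, 16092 reached a CPM of 2 in at least 1 library.

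Differences were tested in R 4.3.3 by limma 3.58.1, its variance trend fitted robustly, on log2(value + 1), so that fold changes of low genes are understated. All 25 libraries entered 1 model with a mean per group, and the 15 libraries of the other groups enter through the estimate of the spread. That model uses 1 spread per gene for all groups, although the sham libraries spread more than the EP libraries. Its adjusted p can be far smaller than in the fit of sham and EP alone, for Cks2 8.74e-05 against 0.011 and for Cdca8 1.42e-05 against 0.00998. For Ccng1 it was larger, 0.0295 against 0.018. The tests are two-sided, with Benjamini-Hochberg adjustment over all genes tested. The labels do not say more than that each library is 1 numbered sample of its group, so p-values measure the spread between these samples. Because the values carry size factors, edgeR 4.0.16 and DESeq2 1.42.0 were run on the recovered reads as alternatives. In simulated data with 50 genes changed at each size, 14% of 1.5-fold, 30% of 2-fold, 86% of 4-fold and 90% of 8-fold changes were recovered among 16092 genes. The simulated data gave 115 calls, against 6057 in the real data, and had the same dispersion in every group. With fewer genes changed the adjustment is stricter, so these shares do not give the power of the real comparison.

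Gene lists (65) and the genes compared were chosen with earlier results of these data known. The named genes were, at each end, the 15 with the largest t among genes with a log2 CPM of at least 3, no overlap of the groups and a call with and without sham 4, EP 3 and EP 4, with muscle, nerve and clock lists set aside (1447 genes met these terms). To these were added from each list up to 3 members per direction, ranked by p, and the members of counts of 5 or fewer. Not all genes that the rule allows are named, and some items are not reported here.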

Additional observations from a re-analysis of the deposited data

Results flagged for a closer look

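For 15 of the 462 sets of 5 libraries examined (231 genes, sham and EP each), the highest or the lowest library lay farther from its neighbour than Dixon's 95% limit for 5 samples allows. Chance gives about 1 such library in 20 sets. These are values only, and no cause was tested. In sham 4, Cat stood at 7244 normalized counts, above the 4643 to 5252 of the other 4 sham libraries. Cdca8 was 238 in EP 2 and 358 to 419 in the rest of the EP group. The value of Cdkn1b in EP 2 was 4019.6, against 4471 to 4653 in the other EP rats. In sham 2, Ezh2 stood at 1059.7 normalized counts, below the 1510.2 to 1705 of the other 4 sham libraries. Gja1 was 10915 in sham 4 and 42335 to 72689 in the rest of the sham group. The value of Gsta1 in EP 1 was 5074, against 2325 to 2880 in the other EP rats. In sham 3, Htra1 stood at 15112 normalized counts, above the 8972 to 10274 of the other 4 sham libraries. Il1r2 was 241 in sham 1 and 271 to 277 in the rest of the sham group. The value of Ilf2 in EP 5 was 2917, against 2304 to 2448 in the other EP rats. In EP 4, Per1 stood at 9258 normalized counts, above the 5405 to 5752 of the other 4 EP libraries. Msx2 was 469.5 in sham 4 and 3411 to 6915 in the rest of the sham group. Ppargc1a was 22.3 in sham 3 and 88.6 to 128 in the rest of the sham group. The value of Prnp in sham 3 was 30319, against 17998 to 20820.4 in the other sham rats. In EP 5, Sod2 stood at 8351 normalized counts, below the 12938 to 14679 of the other 4 EP libraries. Wnt9a was 33.1 in EP 5 and 100.1 to 146 in the rest of the EP group. By library, sham 3, sham 4 and EP 5 had 3 of these values each, EP 2 had 2, sham 1, sham 2, EP 1 and EP 4 had 1 each, and sham 5 and EP 3 had 0. The largest relative gap was that of Per1 in EP 4, 0.884 of the range of the group.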

How the results depend on the processing

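The 6057 calls numbered 3380 when the sham and EP libraries were fitted alone, 1745 higher and 1635 lower, which is the planned setting that moved these counts by more than 1.5 times. With each library left out in turn the calls ran from 4801 (without sham 1) to 6783 (without sham 2), those higher from 2417 to 3388 and those lower from 2357 to 3395. Of the settings chosen after seeing the data, edgeR without sham 4, EP 3 and EP 4 gave 1519 higher, and DESeq2 without them gave 5388 calls. Over all libraries, edgeR called 5952 genes with TMM and 5975 with RLE factors, and DESeq2 called 6832. With no filter 6015 genes passed and with edgeR's own filter 6264, with a pseudocount of 0.5 or 10 the counts were 6038 and 6105, and with TMM factors in place of the deposited ones 6000. The cause of these differences was not tested. Of the 231 genes named, 224 kept their direction and their side of the threshold with edgeR, 227 with DESeq2, 211 without the 3 libraries and 196 in the fit of both groups alone. The sign turned in 2 genes that had not passed, Col1a1 (-0.47 to 0.00684 on the log2 scale with 1 library left out, turned without sham 3) and Tnf (-0.72 to 0.10, turned without EP 1).

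With the rat number as a replicate block 5974 genes passed. The block was no part of the main model since the numbers do not pair the rats: deviations of same-numbered libraries from their group means correlated at -0.10, 0.33, -0.39, 0.46 and 0.08 over genes, and no sham library correlated best with the EP library of its own number. Among the genes named, Lif and Xaf1 did not pass with the block.

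At 50690789 to 70801162 reads, counting error is small for genes with many reads. The sham libraries spread more than the EP libraries (median SD of log2 values 0.495 against 0.32), and the part of this spread in the calls was not tested. Genes near 100 normalized counts or fewer, such as Lif, Retnlg, Ngp, Xaf1 and Gbp1, rest on few reads. List counts of 5 or fewer often changed with 1 library, among them those of collagens, crosslinking, blood endothelium, chemokines and dendritic cells.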
